A study of Homo sapiens with 6 samples.

Results

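The 10 genes described here drive or answer the G1 phase of the cell cycle: the D cyclins CCND1, CCND2 and CCND3, the E cyclins CCNE1 and CCNE2, the cyclin-dependent kinases CDK2, CDK4 and CDK6, and the transcription factors MYC and E2F1. Their RNA was measured on 6 single-colour expression arrays, all labelled as HSC2, a cell line from a human squamous carcinoma of the mouth. Of these, 3 carry a label of stable transfection with a full-length wild-type cDNA of MALT1, a paracaspase that acts in NF-kappaB signalling, and 3 a label of stable transfection with the vector alone, called mock, and both lines were grown in DMEM with serum and antibiotics. The labels name no promoter for the cDNA and leave it unstated whether a line is 1 clone or whether arrays of a group came from separate cultures. The p-values therefore reflect the spread among these arrays only, which may be technical. Every probe set whose only gene symbol is one of the 10 was taken, which gave 17 of the 22215 probe sets tested and 10 of the 11963 genes with such a probe set. CDK2 and CCND2 have 3 probe sets each, CCND1, CCNE2 and E2F1 have 2 each, and the other genes have 1. Of the 17, 9 have an ID ending in s_at, a class that can bind several transcripts.

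In textbook accounts, mitogens induce the D cyclins, which bind CDK4 or CDK6 and begin to phosphorylate the retinoblastoma protein RB1. RB1 then releases E2F1 and its relatives, which switch on CCNE1, CCNE2 and the genes of DNA synthesis, and cyclin E with CDK2 completes the phosphorylation of RB1. MYC, bound to DNA with its partner MAX, raises genes of growth and of the cell cycle, CCND2 and CDK4 among them. In squamous carcinoma of the mouth, CCND1 is known as a frequent target of amplification and CDKN2A, which encodes the CDK4 and CDK6 inhibitor p16, as a frequent target of loss.

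Several measures of the whole arrays differed between the groups. Of all probe sets tested, 35.6% passed at an adjusted p under 0.05 (on the arrays labelled MALT1, 18.6% as higher and 17.0% as lower), and the groups did not overlap in 49.7%. Of the genes, each by its brightest probe set, 21.1% passed as higher and 19.2% as lower. All 3 probe sets of MALT1 itself read lower on the arrays labelled MALT1 (log2 fold changes −1.08, −0.47 and −0.28, the last not passing at an adjusted p of 0.0969). Where these probe sets lie relative to the transfected cDNA was not checked. The groups are therefore called by their labels throughout. Of 12 markers of squamous epithelium, 9 were measured and all 9 were lower, with a summed signal of 16349.5 to 18060 against 51446 to 56421 on mock arrays, and none was dim in either group. All 12 markers of luminal breast epithelium were higher, with a sum of 77445 to 85957 against 9005 to 9735, and FOXA1, KRT19, SPDEF and TFF1 were dim on every mock array. KRT19 averaged 12414 ± 567 and TFF1 15491 ± 264 on the arrays labelled MALT1, against 1.25 ± 0.07 and 11.4 ± 2.47 on mock arrays (SD, n = 3 each). On the arrays labelled MALT1, the MALT1 probe sets thus read lower rather than higher. The squamous markers were lower there but still above the dim level, and the luminal breast markers were higher. Whether the line labelled MALT1 differs from HSC2, or whether labels were exchanged, was not tested. Every fold change below compares arrays as labelled, not an effect of MALT1. Of 6 fibroblast markers 1 passed, as lower (sums 118 to 244 against 121 to 183), and of 4 leukocyte markers 1 passed, as higher (sums 37.5 to 76.4 against 19.0 to 35.6). Dim means at or below a signal of 17.6, the highest reading of the bacterial trp control probe sets on any array. MALT1 replicate 3 had the lowest share of probe sets at or below that level (25.6%, against 31.7% to 33.3% on the other arrays) and the highest ratio of 3′ to 5′ signal for ACTB (4.46, against 3.59 to 3.98). The part of these differences in the results below was not tested.

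The G1 genes did not move together. CCND2, CDK6, MYC and, on 1 of its 2 probe sets, E2F1 fell on the arrays labelled MALT1, while CDK4, CCNE1 and, on 1 of its 2 probe sets, CCNE2 rose, and no probe set of CCND1, CCND3 or CDK2 passed. In all, 3 of the 17 probe sets passed as higher and 6 as lower, which is 17.6% and 35.3%, and the 2 groups did not overlap in 12. Of all probe sets, 18.6% passed as higher and 17.0% as lower, and the groups did not overlap in 49.7%. The share of the 17 that rose is close to that of all probe sets, and 3 of the 6 that fell target the single gene CCND2. Counted by the brightest probe set of each gene, 2 of the 10 genes rose (CDK4 and CCNE1) and 3 fell (CCND2, CDK6 and MYC). Of all genes counted in this way, 21.1% rose and 19.2% fell. The median log2 fold change of the 17 was −0.08, beside 0.08 over all probe sets, and the median size without sign was 0.65, beside 0.54. That 0.65 is the value of CDK2 on 211803_at, where only 1 array of each group was above the dim level. By the brightest probe set of each gene, the median size was 0.46 for the 10 genes, beside 0.54 over all genes. All values below are signals on the authors' linear scale, and fold changes are on log2(signal + 1), MALT1 minus mock, tested with limma on all 6 arrays with p-values adjusted over all probe sets. Signals of different probe sets were not compared as levels, since probe sets differ in brightness, and fewer transcripts per cell cannot be told apart from fewer cells that carry them.

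**Figure D1:**
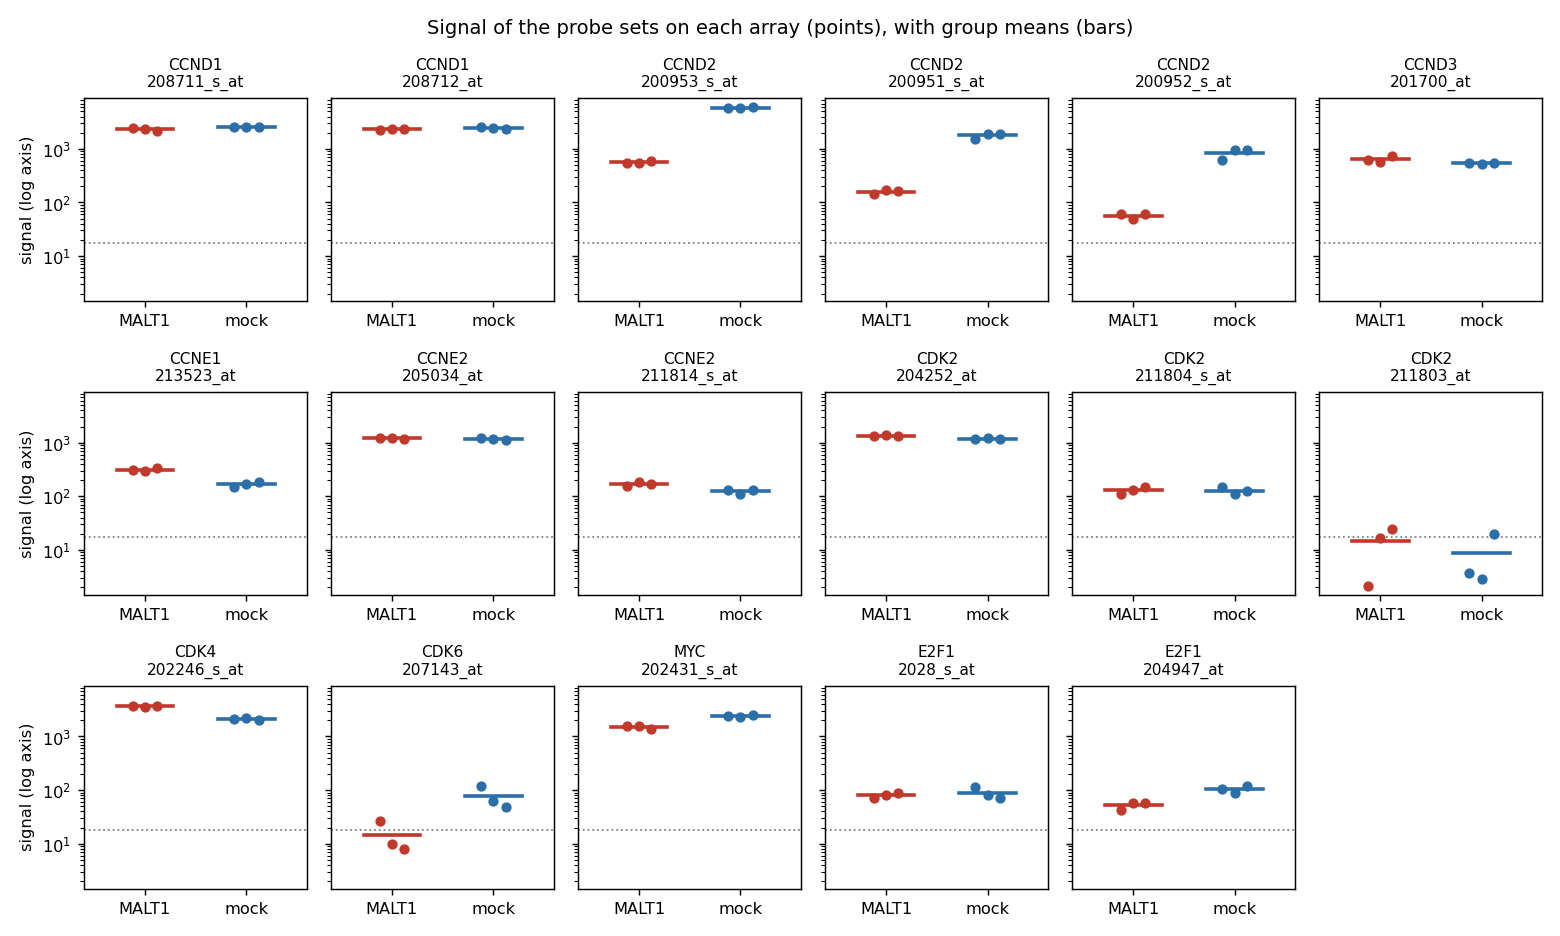
Signal (log axis) of the 17 probe sets of the 10 genes on each of the 3 arrays labelled MALT1 (red, left) and the 3 labelled mock (blue, right); bars are group means and the dotted line is the dim level of 17.6. The 3 probe sets of CCND2 are far apart between the groups, CDK4 and CCNE1 lie higher and MYC lower on the arrays labelled MALT1, and the groups lie close together on both probe sets of CCND1.

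CCND2, the D cyclin that MYC is known to induce, showed the widest gap of the 10 genes. Its brightest probe set, 200953_s_at, read 554, 553 and 605 on MALT1 replicates 1 to 3, against 5737, 5725 and 6002 on mock replicates 1 to 3. Every array labelled MALT1 lay far below every mock array, a fall of 10.2-fold (log2 fold change −3.35 ± 0.08 SE, adjusted p = 5.3e-05). The other 2 probe sets of the gene gave the same picture. 200951_s_at read 144, 170 and 162 in the MALT1 group, against 1551, 1930 and 1881 in the mock group (log2 fold change −3.49 ± 0.13 SE, adjusted p = 8.8e-05). 200952_s_at read 62.0, 48.1 and 61.1 on the arrays labelled MALT1, against 615, 933 and 956 on mock arrays (log2 fold change −3.83 ± 0.22 SE, adjusted p = 0.00024). CCND2 was thus lower on all 3 but still above the dim level on all 6 arrays in each, so these are measured folds rather than bounds. In size, the 3 changes stood between percentiles 97.7 and 98.4 of all probe sets tested. Probe sets of 1 gene share their target and are not replicates of the comparison.

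CCND1 and CCND3 gave no difference that passed. CCND1, the D cyclin most tied to epithelial growth signals, read 2425, 2400 and 2192 in the MALT1 group on 208711_s_at, against 2539, 2513 and 2569 in the mock group. The groups did not overlap, but the log2 fold change was only −0.12 (95% interval −0.34 to 0.09, adjusted p = 0.345). On 208712_at the readings were 2276, 2354 and 2343 on the arrays labelled MALT1 and 2602, 2435 and 2344 on mock arrays, where MALT1 replicate 2 exceeded mock replicate 3 (log2 fold change −0.08, 95% interval −0.29 to 0.13, adjusted p = 0.528). CCND3, a D cyclin prominent in lymphocytes and differentiating cells, read 611, 579 and 738 on the arrays labelled MALT1, against 556, 528 and 540 on mock arrays. Each MALT1 array was above each mock array, by 0.24 on average on the log2 scale (95% interval −0.07 to 0.54, adjusted p = 0.196), and MALT1 replicate 3 stood above the other 2 of its group.

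The kinases that pair with the D cyclins went opposite ways. CDK4 read 3715, 3626 and 3784 on the arrays labelled MALT1, against 2077, 2182 and 2011 on mock arrays, with no overlap and little spread within either group. It rose by 1.77-fold (log2 fold change 0.83 ± 0.08 SE, adjusted p = 0.0013). CDK6 fell on its single probe set, 207143_at, which read 26.6, 9.75 and 8.05 in the MALT1 group, against 118, 63.1 and 47.6 in the mock group. Replicates 2 and 3 of the MALT1 group were at or below the dim level of 17.6 and all mock arrays were above it, without overlap between the groups (log2 fold change −2.37 ± 0.56 SE, adjusted p = 0.025). With 16 in place of 1 added before the log, the CDK6 difference was −1.56 on that scale (adjusted p = 0.0127). Its call was lost without MALT1 replicate 2 (adjusted p = 0.0794), MALT1 replicate 3 (0.0706), mock replicate 1 (0.0701) or mock replicate 2 (0.0684). Leaving out any single array gave a log2 fold change between −2.86 and −2.00, and fits on fewer arrays have less power. The CDK6 call thus lies near the threshold and rests on a probe set that was dim on MALT1 replicates 2 and 3.

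The CDK4 promoter is shown because CDK4 rose while MYC, a factor known to act on it, fell. The 250 bases before its start site, from RefSeq (GRCh38.p14, chr12:57752311-57752560, minus strand), were searched on both strands for CACGTG, the E-box that MYC with MAX binds, and for the E2F sequences TTTCCCGC, TTTCGCGC, TTTGCCGC and TTTGGCGC. Capitals mark the 3 E-boxes, which begin 216, 196 and 101 bases before the start site, and no E2F match was found.
CDK4: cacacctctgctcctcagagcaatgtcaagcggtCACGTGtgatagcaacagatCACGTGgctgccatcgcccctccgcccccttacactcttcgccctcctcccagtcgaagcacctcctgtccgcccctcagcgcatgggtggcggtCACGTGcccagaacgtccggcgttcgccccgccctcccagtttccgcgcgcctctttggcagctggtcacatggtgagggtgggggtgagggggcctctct
Of 35116 windows of the same length in the table, 6.34% held at least 1 E-box and 28 held 3 or more. The table matched 5 of the 10 genes with 8 windows, and no E-box was found in those of CCND3, CDK6, CCNE1 and E2F1. Such matches describe the letters of the window and say nothing of whether a factor was bound in these cells.

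The E cyclins split by gene and by probe set, and their kinase CDK2 showed no difference that passed. CCNE1, an activator of CDK2 and itself an E2F target, read 306, 292 and 334 on the arrays labelled MALT1, against 151, 172 and 187 on mock arrays. The groups were well apart, and CCNE1 rose by 1.83-fold (log2 fold change 0.87 ± 0.12 SE, adjusted p = 0.0039). CCNE2, the second E cyclin, read 1208, 1246 and 1194 in the MALT1 group on its brighter probe set, 205034_at, against 1223, 1161 and 1112 in the mock group. These groups overlapped, with a log2 fold change of 0.06 (95% interval −0.15 to 0.27, adjusted p = 0.623), which turned to −0.066 after centring each array on its median. Its dimmer probe set, 211814_s_at, read 159, 188 and 168 on the arrays labelled MALT1, against 133, 110 and 129 on mock arrays, without overlap (log2 fold change 0.46 ± 0.12 SE, adjusted p = 0.0348). That call was lost after median centring (adjusted p = 0.145), after quantile normalization (0.0526) and without any single array of the 6 (0.0619 to 0.099). Leaving out single arrays gave log2 fold changes of 0.38 to 0.52, and fits on fewer arrays have less power. The CCNE2 call thus lies near the threshold and rests on 1 probe set and on the scaling.

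CDK2 read 1328, 1365 and 1353 on its brightest probe set, 204252_at, in the MALT1 group, against 1164, 1231 and 1195 in the mock group. Every MALT1 array was above every mock array, but by only 0.17 on the log2 scale (95% interval −0.02 to 0.37, adjusted p = 0.154), and this small difference passed when the dimmer probe sets were left out (adjusted p = 0.0446) or the variance was modelled with a trend on signal (adjusted p = 0.043). On 211804_s_at the readings were 109, 133 and 148 on the arrays labelled MALT1 and 149, 108 and 124 on mock arrays, fully mixed (log2 fold change 0.03, adjusted p = 0.917, with the sign turned by median centring and by quantile normalization). The probe set 211803_at read 2.13, 17.0 and 24.8 in the MALT1 group and 3.68, 2.90 and 19.5 in the mock group. Only 1 array of each group was above the dim level there, so no fold is read from it.

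MYC, the transcription factor that couples growth signals to the cell cycle, fell. Its single probe set, 202431_s_at, read 1560, 1594 and 1365 on the arrays labelled MALT1, against 2437, 2315 and 2486 on mock arrays. The highest MALT1 array was well below the lowest mock array, and the fall was 1.60-fold (log2 fold change −0.68 ± 0.10 SE, adjusted p = 0.0049). A change of this size was common on these arrays: it stood at percentile 59.2 of size among all probe sets.

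E2F1, the RB1-bound activator of S phase genes, fell on 1 of its 2 probe sets. 204947_at read 43.1, 57.3 and 57.2 in the MALT1 group, against 103, 86.8 and 120 in the mock group, with no overlap (log2 fold change −0.96 ± 0.18 SE, adjusted p = 0.0122). On 2028_s_at, the readings were 71.2, 79.4 and 88.2 on the arrays labelled MALT1, against 112, 82.4 and 71.7 on mock arrays. These groups were mixed, since mock replicate 3 was as low as MALT1 replicate 1 (log2 fold change −0.13, 95% interval −0.63 to 0.37, adjusted p = 0.658), and without mock replicate 1 the difference was 0.044. Both probe sets lay near the middle of the table in mean signal (percentiles 50.1 and 50.9).

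The E2F1 promoter is shown because the gene is known to be under the control of E2F proteins themselves, through the motif searched above. In the 250 bases before its start site (RefSeq, GRCh38.p14, chr20:33686386-33686635, minus strand) capitals mark 2 matches, GCGGCAAA, the reverse strand reading of TTTGCCGC, which begins 33 bases before the start site, and TTTGGCGC, which begins 20 bases before it.
E2F1: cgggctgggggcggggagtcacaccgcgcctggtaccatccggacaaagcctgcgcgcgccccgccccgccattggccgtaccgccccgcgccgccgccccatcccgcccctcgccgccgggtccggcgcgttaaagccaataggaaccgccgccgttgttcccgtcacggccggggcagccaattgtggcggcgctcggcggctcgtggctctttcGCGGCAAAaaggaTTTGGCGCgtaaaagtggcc
Of the 35116 windows, 2.79% held at least 1 such match and 43 held 2 or more. In the windows of CCND3, CDK4, CDK6 and CCNE1 these letters were not found, and the matches do not show binding.

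**Figure D2:**
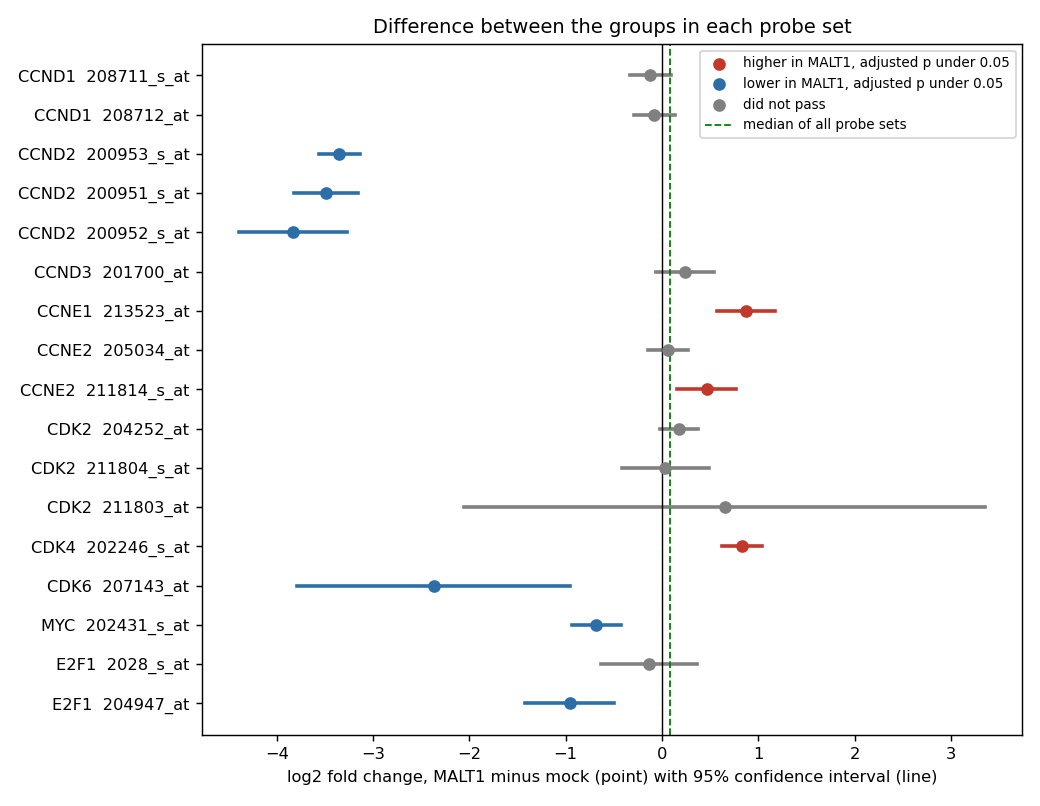
Log2 fold change (MALT1 minus mock, points) with its 95% confidence interval (lines) for each of the 17 probe sets, coloured by call, with the median of all probe sets dashed at 0.08. The 3 probe sets of CCND2 lie between −3.83 and −3.35, CDK4 and CCNE1 at 0.83 and 0.87, and the intervals of CCND1, CCND3 and CDK2 include 0.

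Genes around these 10 were counted in 10 lists, each gene by its brightest probe set, to be read against the 21.1% of all genes that passed as higher, the 19.2% that passed as lower and the median log2 fold change of 0.08 over all genes. No set test was made. All lists were measured on the arrays on which squamous markers were lower and luminal breast markers higher, and the part of that difference in the counts was not tested.

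The brakes on the G1 kinases moved both ways. Of 6 measured CDK inhibitors, 3 rose and 1 fell, and their median log2 fold change was 0.03 (0.21 with CDKN2B, dim in both groups, set to no change). CDKN2A, the inhibitor of CDK4 and CDK6 named above, averaged 46.5 ± 4.06 on the arrays labelled MALT1, against 547 ± 23.5 on mock arrays (mean ± SD, n = 3 each; log2 fold change −3.53, adjusted p = 5.7e-05, passing on 2 of 3 probe sets). CDKN1A, which encodes p21, a CDK2 inhibitor induced by p53, read 1060 ± 31.5 in the MALT1 group and 300 ± 38.0 in the mock group (log2 fold change 1.83, adjusted p = 0.00036). CDKN1B, which encodes p27, rose by 0.43 on the log2 scale (adjusted p = 0.0151), and CDKN1C rose to 51.7 ± 17.3, against 20.7 ± 7.01 on mock arrays, on 1 of its 5 probe sets (adjusted p = 0.0451). The count of 4 passing genes was 2 after median centring and without MALT1 replicate 1, since CDKN1B and CDKN1C lost their calls there. CDKN1B also lost its call without MALT1 replicate 2 or mock replicate 2, and CDKN1C after quantile normalization and without MALT1 replicate 3, mock replicate 1 or mock replicate 3. Of 3 pocket proteins, the class of RB1, 2 fell: RBL1 read 238 ± 28.1 in the MALT1 group and 785 ± 137 in the mock group (log2 fold change −1.71, adjusted p = 0.0013), and RB1 read 1496 ± 128 and 2905 ± 546 in the same order (log2 fold change −0.94, adjusted p = 0.0104). RBL2 did not pass (log2 fold change 0.02, adjusted p = 0.937).

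Among 8 measured relatives of E2F1 and their dimer partners, 4 rose and 1 fell, with a median log2 fold change of 0.67. E2F6, a repressor of the family, averaged 1061 ± 29.3 on the arrays labelled MALT1, against 306 ± 19.3 on mock arrays (log2 fold change 1.79, adjusted p = 0.00017). The activator E2F3 and the repressor E2F8 rose by 0.68 and 0.66 on the log2 scale (adjusted p = 0.0041 and 0.0134). The E2F8 call was lost after median centring (adjusted p = 0.0542) and without MALT1 replicate 1 (0.0505). TFDP1, the partner with which E2F1 binds DNA, was the 1 that fell, at 1845 ± 68.7 in the MALT1 group and 3588 ± 179 in the mock group (log2 fold change −0.96, adjusted p = 0.00099). Without MALT1 replicate 1 the list had 3 passing genes in place of 5.

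Of 11 measured partners, relatives and antagonists of MYC, 6 rose and 0 fell by the brightest probe set, beside the fall of MYC. There, 1 was lower at an unadjusted p under 0.05 (MAX, adjusted p = 0.0589). Of the 5 probe sets of MAX, 4 shared this call of not passing. The remaining probe set passed, in a direction not given here. The median log2 fold change was 0.33. MXI1, which competes with MYC for MAX, averaged 835 ± 173 on the arrays labelled MALT1, against 400 ± 19.1 on mock arrays (log2 fold change 1.04, adjusted p = 0.0093). TRRAP, a coactivator that MYC recruits, rose by 0.77 and MLXIP, a member of the wider MYC and MAX network, by 0.63 on the log2 scale, MLXIP on 1 of its 2 probe sets (adjusted p = 0.0044 and 0.0076). MYCN, the neuronal relative of MYC, was dim on every mock array and read 76.0 ± 19.2 in the MALT1 group, at least 4.22-fold higher (adjusted p = 0.0058), on 1 of its 3 probe sets.

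In the list of cyclin turnover and CDK activation, 2 of 16 measured genes rose and 6 fell (median log2 fold change −0.21). WEE1, a kinase that inhibits CDK1 and CDK2, averaged 735 ± 44.4 on the arrays labelled MALT1, against 1936 ± 148 on mock arrays (log2 fold change −1.39, adjusted p = 0.00052). CCNH, the cyclin of the kinase that activates CDKs, fell by 0.86 on the log2 scale (adjusted p = 0.0018). CUL3 and FBXW7, parts of ubiquitin ligases that act on cyclin E, fell too (log2 fold changes −0.51, on 1 of 3 probe sets, and −0.65, adjusted p = 0.0049 and 0.0069). The count of 8 passing genes was 5 without MALT1 replicate 2, without mock replicate 1 or without mock replicate 3.

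The list of other cyclins and CDKs is mixed: it holds those of S phase and mitosis beside genes such as CCNC, CCNG1 and CDK5. Of its 14 measured genes, 3 rose and 6 fell, with a median log2 fold change of −0.24. CCNA1, a cyclin of germ cells and some tumours, averaged 30.3 ± 4.64 on the arrays labelled MALT1, against 252 ± 3.51 on mock arrays (log2 fold change −3.03, adjusted p = 0.00012). CCNC, the cyclin of the Mediator kinase, fell by 0.60 on the log2 scale (adjusted p = 0.0032), while the p53 target CCNG1 and the neuronal kinase CDK5 rose by 0.97 and 1.21 (adjusted p = 0.00068 and 0.0021). The other members that fell were CCNA2, CCNB1, CCNB2 and CDK1, the cyclins and kinase of S phase and mitosis, with log2 fold changes of −0.59 (on 1 of 2 probe sets), −0.49, −0.60 and −0.56. These 4 are named after their values were seen.

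Targets of E2F moved both ways. Of 24 measured E2F targets of S phase entry, 8 rose and 5 fell, with a median of −0.03 on the log2 scale. RRM1, the large subunit of ribonucleotide reductase, averaged 4725 ± 243 on the arrays labelled MALT1, against 9714 ± 212 on mock arrays (log2 fold change −1.04, adjusted p = 0.00069). The replicative helicase subunit MCM3 read 2142 ± 110 in the MALT1 group and 1216 ± 31.9 in the mock group (log2 fold change 0.82, adjusted p = 0.0016). MYBL2, a transcription factor of proliferating cells, rose by 1.05 and thymidylate synthase (TYMS) by 0.58 on the log2 scale (adjusted p = 0.0049 and 0.0039). The other probe set of TYMS did not pass (log2 fold change 1.88, adjusted p = 0.215). It averaged 17.8 ± 12.5 in the MALT1 group and 4.55 ± 5.58 in the mock group.

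Of 19 measured growth genes known as MYC targets, 8 rose and 1 fell on the arrays on which MYC fell, with a median log2 fold change of 0.28. ODC1, the first enzyme of polyamine synthesis, averaged 11085 ± 176 on the arrays labelled MALT1, against 4470 ± 172 on mock arrays (log2 fold change 1.31, adjusted p = 0.00029). NME1, a nucleoside diphosphate kinase, and the DNA repair enzyme APEX1 rose by 0.70 and 0.51 on the log2 scale (adjusted p = 0.0041 and 0.0056). RRP9, a factor of ribosomal RNA processing, was the 1 that fell, at 87.8 ± 6.07 in the MALT1 group and 178 ± 25.8 in the mock group (adjusted p = 0.00445). The count of 9 passing genes was 4 after median centring, 4 without MALT1 replicate 1, mock replicate 1 or mock replicate 2, and 5 without MALT1 replicate 2. Of 5 genes that MYC is known to repress, 1 rose (CDKN1A) and 2 fell, GADD45A and NDRG1 (log2 fold changes −1.53 and −2.16, adjusted p = 0.00028 and 0.00075), and TXNIP did not pass on its brightest probe set (log2 fold change −0.31, adjusted p = 0.176) but passed as lower on 1 of the other 2 (log2 fold change −0.69, adjusted p = 0.0081). The 5 had a median of −0.37 (−0.31 with CDKN2B at no change).

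The regulators upstream of CCND1 differed widely although CCND1 did not pass. Of 13 measured genes of RAS and ERK input and of CCND1 transcription, 4 rose and 8 fell, and the median was −0.89 on the log2 scale. The oestrogen receptor ESR1, known to raise CCND1 in breast epithelium, averaged 1765 ± 45.0 on the arrays labelled MALT1, against 115 ± 4.65 on mock arrays on its brightest probe set (log2 fold change 3.93, adjusted p = 4.8e-05), and 3 of its 9 probe sets passed as higher. The receptor kinase ERBB3 rose by 2.97 on the log2 scale (adjusted p = 0.00018), on 1 of its 2 probe sets. EGFR, the growth factor receptor common in squamous carcinoma, read 643 ± 116 in the MALT1 group and 5457 ± 127 in the mock group (log2 fold change −3.10, adjusted p = 0.00018), and 4 of its 6 probe sets passed as lower. FOSL1, an AP-1 factor downstream of ERK, fell by 3.14 on the log2 scale (adjusted p = 6.8e-05). ESR1, ERBB3 and EGFR also belong to the marker lists above.

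**Figure D3:**
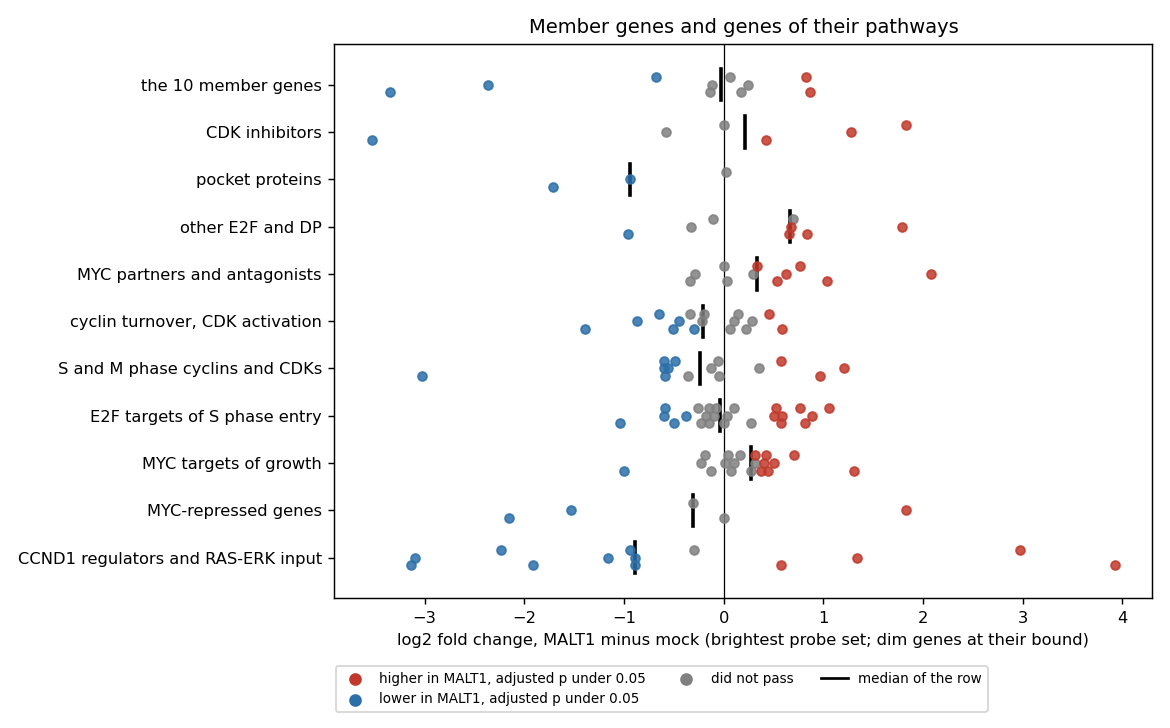
Log2 fold change (MALT1 minus mock, horizontal axis) of each measured gene by its brightest probe set, in the 10 member genes and the 10 lists (rows), coloured by call; black bars are medians, genes dim in a single group stand at their bound, and those dim in both stand at 0. The member genes spread from −3.35 to 0.87, the MYC partners hold no gene that passed as lower, and the CCND1 regulators reach from −3.14 to 3.93.

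Genes that lie beside the 10 on their chromosomes were compared as well. For each gene the 5 measured genes on either side in RefSeq order were taken, 100 in all. Of these, 23 passed as higher and 20 as lower, shares near those of all genes (21.1% and 19.2%). Beside CCND2, on chromosome 12, 1 rose and 5 fell, but the lowest log2 fold change among them was −1.37, beside −3.35 for CCND2 itself, and the 2 smallest adjusted p-values were those of TEAD4, which rose by 1.51, and RAD51AP1, which fell by 1.22. Beside MYC, on chromosome 8, 4 rose and 1 fell: WASHC5 and SQLE rose by 1.50 and 1.70 on the log2 scale, against the fall of MYC. The other 2 that rose, named after their values were seen, were MTSS1 and TRIB1, and all 4 lie on the same side of MYC. The 1 that passed as lower, ADCY8, was dim on every array, so no fold is given. Beside E2F1, on chromosome 20, 0 rose and 5 fell in the limma fit (NECAB3 alone was higher at an unadjusted p under 0.05), CDK5RAP1 and RALY among them (log2 fold changes −0.87 and −0.59).

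Beside CDK4, on chromosome 12, 4 rose and 1 fell, among them TSFM, which rose by 1.25 on the log2 scale, and AGAP2, dim on every mock array and at least 2.43-fold higher, while TSPAN31, next to CDK4, did not pass (log2 fold change 0.24, adjusted p = 0.114; named after its values were seen). Beside CCND1, on chromosome 11, 3 rose and 4 fell, from GAL, dim on every mock array and at least 36.6-fold higher, to ANO1, which fell by 2.71 on the log2 scale, around a CCND1 that did not pass. Beside CDK6, on chromosome 7, SAMD9 and TFPI2 fell (log2 fold changes −3.15 and −1.25), SAMD9 being dim on 2 of the 3 arrays labelled MALT1, and the other 8 did not pass. Beside CDK2, on chromosome 12, 4 rose and 1 fell, with ERBB3 and SUOX higher by 2.97 and 1.44. Beside CCNE2, on chromosome 8, 4 rose and 0 fell in the limma fit (PTDSS1 alone was lower at an unadjusted p under 0.05), PLEKHF2 by 1.27 and SDC2 by 2.51. Of the 10 beside CCNE1, on chromosome 19, ZNF91 rose by 0.97 and ANKRD27 fell by 0.31, a call that was lost without any single array. Of the 10 beside CCND3, on chromosome 6, GUCA1A and PGC passed as higher, both dim on every mock array (at least 1.42-fold and 2.11-fold, PGC with its call lost without any of 5 single arrays).

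**Figure D4:**
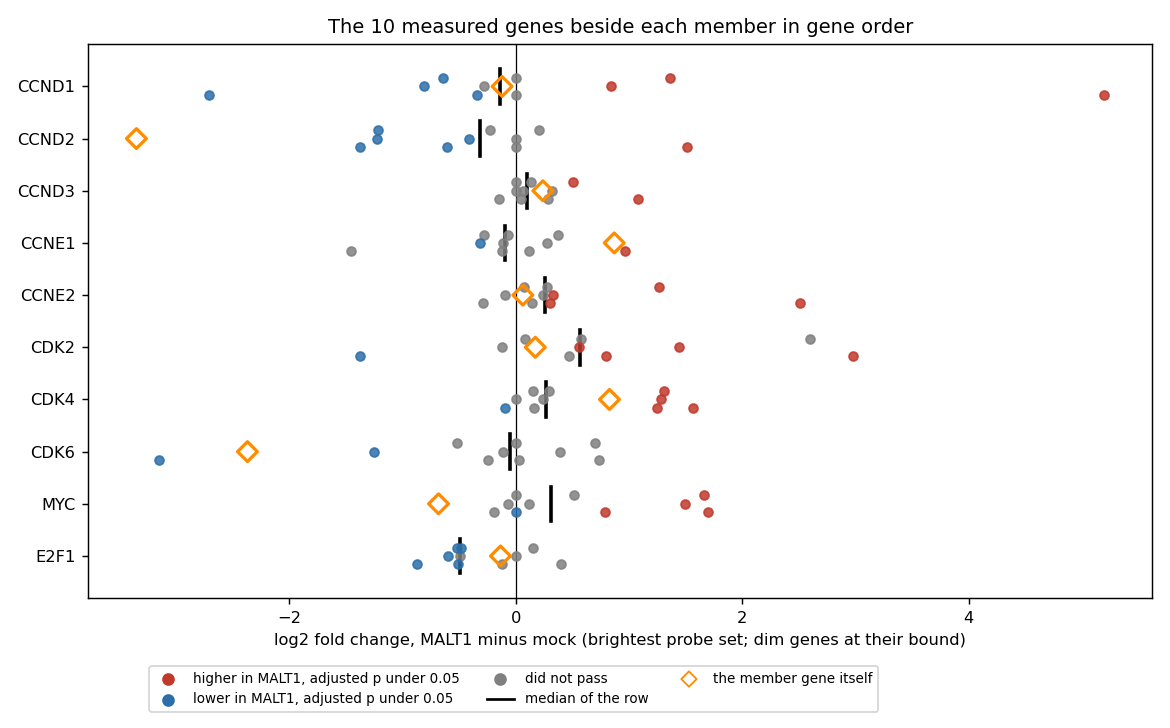
Log2 fold change (MALT1 minus mock, horizontal axis) of the 10 measured genes beside each of the 10 genes in RefSeq order (dots, coloured by call; genes dim in 1 group at their bound, dim in both at 0), their median (black bar) and the gene itself (orange diamond). CCND2 at −3.35 lies outside the range of its neighbours, and MYC at −0.68 lies opposite to the 4 neighbours that rose.

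CCND2 was taken for a search of similar profiles because its probe set was the brightest of the 17, which is no ranking of its level among the genes. It had RGS20, LPAR1 and DUSP6 as the genes with the most similar profile, with a root mean square difference of 0.06, 0.06 and 0.07 between mean-centred log2 values over the 6 arrays. RGS20 averaged 154 ± 10.1 on the arrays labelled MALT1, against 1484 ± 57.6 on mock arrays, LPAR1 193 ± 20.1 and 1858 ± 57.4, and DUSP6, a phosphatase that switches off ERK, 252 ± 5.96 and 2510 ± 69.7, in the same order. The 6 arrays fall into 2 groups, so this likeness is mainly that of the size of the group difference.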

How the data were processed

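The authors deposited a linear intensity for each of 22277 probe sets on 6 arrays. No source used here names their software. The values show that each array had been scaled to a mean near 500.2 after trimming 2% at each end. Control probe sets (62) were left out, and 22215 were tested. Of these, 19064 have 1 gene symbol in the platform annotation, updated through RefSeq gene IDs, 1043 have several and 2108 none. The deposited intensity was turned into log2(signal + 1) and the groups were compared with limma 3.58.1 in R 4.3.3 (lmFit, eBayes, group as the only term, no filter, two-sided, Benjamini-Hochberg over all probe sets, threshold 0.05), tested on simulated data. The number of arrays limits the precision. Fold changes of dim probe sets depend on the added 1. Where every array of a group read 17.6 or less, a bound is given: the brighter group's geometric mean divided by 17.6, a level chosen with the data known.

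The 10 genes, the lists and markers were chosen with earlier results of these data known. Named genes are all 10 genes with every probe set, MALT1, up to 4 genes per list and 2 passing neighbours per gene by smallest adjusted p, and the 3 genes with a profile nearest to the brightest of the 10. The alternatives were an added 16, median centring, quantile normalization, leaving out the dimmer probe sets, a replicate block and a trend in the variance. The mean over probe sets and leaving out each array were also run. The dimmer probe sets were those whose mean log2 value was not above the median of all probe sets.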

Additional observations from a re-analysis of the deposited data

How the results depend on the processing

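The calls and directions of CCND2 (3 probe sets), CDK4, CCNE1, MYC and E2F1 on 204947_at held under all 12 alternatives run for them, and CCND1 and CCND3 passed under none. The counts of passing probe sets among the 17 were 2 to 4 higher and 5 to 6 lower. With the dimmer probe sets left out, only 15 were tested, without CDK6 and without CDK2 on 211803_at. The cause of the changes that follow was not tested. After median centring, which moved the median log2 fold change of all probe sets from 0.08 to −0.05, the difference turned to −0.066 for CCNE2 on 205034_at, to −0.097 for CDK2 on 211804_s_at and to −0.11 for RBL2, and quantile normalization gave −0.027 for CDK2 on 211804_s_at. None of these passed. Leaving out single arrays gave −0.076 to 0.15 for CDK2 on 211804_s_at, −0.27 to 0.044 for E2F1 on 2028_s_at and −0.064 to 0.15 for RBL2. Median centring left 2 CDK inhibitors and 4 MYC growth targets passing. Leaving out single arrays gave 2 to 3 CDK inhibitors, 3 to 5 E2F relatives, 5 to 7 genes of cyclin turnover and 4 to 8 MYC growth targets. Over all probe sets, 4130 higher and 3787 lower became 3179 and 4193 after median centring, and 3573 and 3757 without MALT1 replicate 3.

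The labels number the replicates alike in both groups, but same-numbered arrays shared little (correlations of deviations from the group means of 0.06, −0.003 and 0.06). Replicates 1 and 3 correlated best with their own number, and replicate 2 of the MALT1 group did not. With 3 arrays a group, these small values cannot tell whether same-numbered arrays were paired. With the replicate number as a replicate block, 2 of the 17 probe sets passed as higher and 6 as lower, and 2 CDK inhibitors, 5 genes of cyclin turnover and 4 MYC growth targets passed, and the CCNE2 call on 211814_s_at was lost (adjusted p = 0.126).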
